A study of Homo sapiens with 4 samples.

Results

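The genes described here encode the subunits of the oxidative phosphorylation complexes I to V, compared between FOXC1-transfected and vector-transfected breast cancer cells. Members were chosen by symbol: probe sets annotated to 1 gene whose symbol begins with NDUFA, NDUFB, NDUFC, NDUFS, NDUFV, SDHA, SDHB, SDHC, UQCR, COX4 to COX8 or ATP5, with assembly factors (NDUFAF and SDHAF), pseudogenes, SDHD and the divergent transcript NDUFV1-DT set apart, and with the brightest probe set kept for each gene. This gave 78 genes of 18417 with a probe set of their own, of which 34 belong to complex I, 2 to complex II, 7 to complex III, 17 to complex IV and 18 to complex V. No difference between the groups entered this rule.

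The cells were MDA-MB-231, a human breast cancer line of basal-like, mesenchymal character, grown in DMEM with 10% serum and transfected by Lipo2000 with a FOXC1 plasmid (2 arrays) or with the vector (2 arrays). FOXC1 is a forkhead transcription factor, and the comparison asks how its overexpression changes the transcripts of this line. RNA was read on Affymetrix whole-transcript gene arrays, and each array gave a linear PLIER signal per probe set. The promoter that drives the plasmid, the time after transfection and the use of pools or clones are not stated in the labels. The level of FOXC1 itself was not analysed here, and no check of the labels against it was made.

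Complexes I to IV form the respiratory chain of the inner mitochondrial membrane: they pass electrons from NADH and succinate by way of coenzyme Q and cytochrome c to oxygen, and complexes I, III and IV pump protons as they do so. Complex V, the ATP synthase, lets the protons flow back and makes ATP. Most subunits are encoded in the nucleus and imported, while a smaller set, outside the symbols used here, is encoded by mitochondrial DNA. MDA-MB-231 cells are known for high glycolysis beside active respiration.

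Median array signals were 499 and 512 in FOXC1 cells and 492 and 489 in vector cells. Differences were fitted with limma on log2(signal + 16), and a gene was called at a Benjamini-Hochberg adjusted p under 0.05 over all 21214 probe sets with a symbol. The number of arrays, 2 per group, limits the precision. Of 8 measured genes listed as marks of this cell type, VIM, CD44, AXL, CAV1 and ANXA1 lay well above the median signal on all 4 arrays, while SPARC was dim (145 and 137 in FOXC1 cells, 162 and 184 in vector cells) and below the 25th percentile of all signals (277). Of the 8, 1 was called higher and 5 lower in FOXC1 cells, or 12.5% and 62.5%. Over all genes 15.9% were called higher and 15.5% lower, and among genes above the median signal 23.9% and 23.3%. The summed signal of the 8 was 83215 to 83746 in FOXC1 cells and 88695 to 88850 in vector cells. Of 9 luminal epithelial genes 5 were called lower (55.6%), with a summed signal of 17750 to 17863 in FOXC1 cells and 21075 to 21708 in vector cells. Sums over fibroblast genes (1 of 7 called, higher) were 2212 to 2335 in FOXC1 cells and 2147 to 2208 in vector cells. Those over leukocyte genes (1 of 5 called, higher) were 1387 to 1497 in FOXC1 cells and 1318 to 1424 in vector cells, and those over endothelial genes (1 of 5 called, lower) 3013 to 3081 in FOXC1 cells and 3483 to 3698 in vector cells. No marker was at 0 on any array, and the part of these lists in the results below was not tested. In such bulk RNA, fewer cells of a type and less RNA per cell cannot be told apart.

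The 78 genes changed little as a group and in both directions. In FOXC1 cells 13 were called higher and 12 lower, or 16.7% and 15.4% of the members, beside 15.9% of all genes called higher and 15.5% called lower. Among genes above the median signal of all probe sets, where 71 of the members lay, 23.9% were called higher and 23.3% lower. Both FOXC1 arrays lay above both vector arrays for 25 members, beside 37.1% of all genes, and below both for 21 members, beside 26.4% of all genes. These shares lay near or below the background, so the counts alone set the members apart in neither direction.

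The median log2 difference of the members was 0.019, beside 0.033 over all genes, and the members ranged from -0.20 to 0.45. Their median absolute log2 difference was 0.058, beside 0.11 over all genes. The members' arrays differed by a median of 0.048 log2 units within the FOXC1 pair and 0.030 within the vector pair, beside 0.066 and 0.050 over all genes. The 95% interval of the difference lay within 0.25 log2 units on either side of 0 for 68 of 78 members and within 0.15 for 41. Only 3 called members reached 0.25, namely NDUFV2, NDUFA7 and COX7A1.

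The counts depended on the fit, for the members as for all genes. With each array centred on its median, 4 members were called higher and 13 lower, beside 9.44% and 18.4% of all genes, and the calls of NDUFAB1, NDUFB3, COX7A1, COX7A2L, COX5B, ATP5ME, ATP5PF, ATP5MJ and ATP5MC1 were lost. Without a variance trend limma called 3 higher (NDUFV2, NDUFA7 and COX7A1) and 0 lower, with 9 higher and 5 lower at an unadjusted p under 0.05, beside 7.93% and 9.72% of all genes called. With all rows of the array in the fit 7 were higher (NDUFV2, NDUFA7, NDUFAB1, COX6A2, COX7A2L, COX5A and ATP5PF) and 3 lower (NDUFA8, COX7A2 and ATP5MG), beside 10.1% and 11.7% of all genes. The members' counts were 10 higher and 11 lower without FOXC1 replicate 1 (15.5% and 17.1% of all genes), 17 and 6 without FOXC1 replicate 2 (16% and 13.8%), 6 and 6 without vector replicate 1 (11.2% and 11.2%), and 8 and 7 without vector replicate 2 (10.4% and 12.0%).

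**Figure D1:**
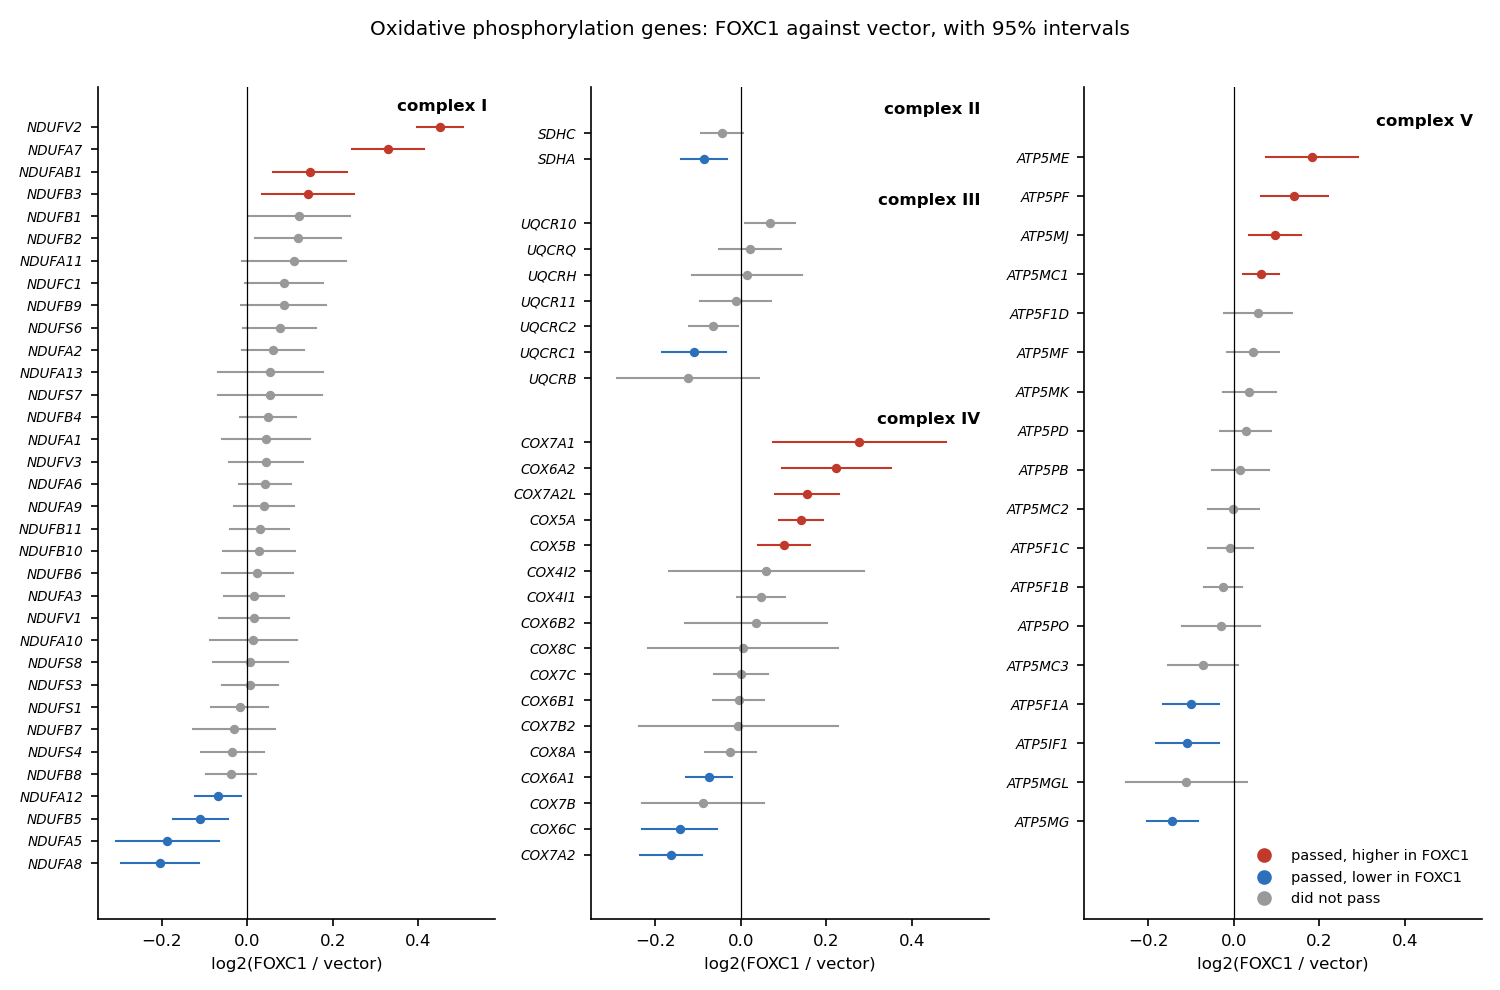
Log2 difference (FOXC1 over vector) of each of the 78 genes, by complex, with its 95% interval (n = 2 arrays per group); red points were called higher, blue ones lower and grey ones not called. NDUFV2 and NDUFA7 stand at the top of complex I at 0.45 and 0.33, and most other genes lie within 0.2 of 0.

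**Figure D2:**
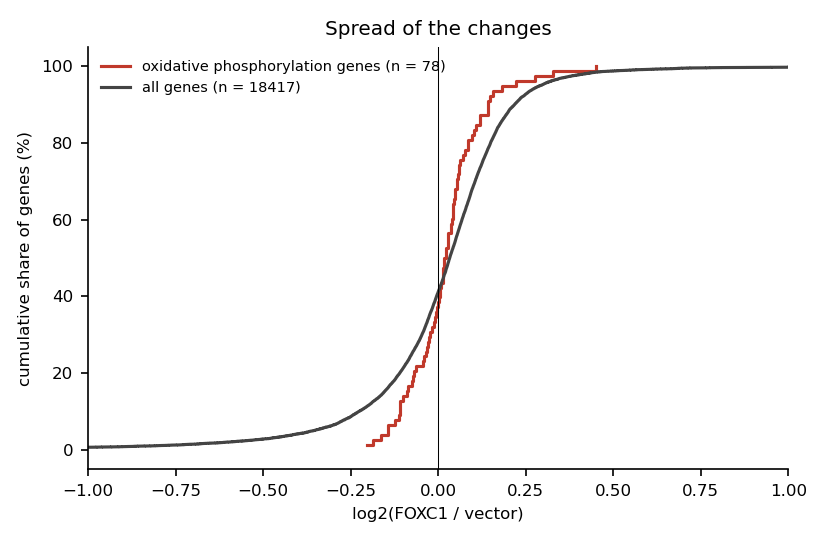
Cumulative share of genes (%) by log2 difference (FOXC1 over vector), for the 78 members (red) and all 18417 genes (dark grey); differences beyond 1 in either direction are not shown. The members' curve is steeper: their median absolute difference was 0.058, against 0.11 over all genes.

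Complex I, the NADH dehydrogenase that starts the chain, held both of the members that kept their call in all 16 alternative fits. Of its 34 genes 4 were called higher and 4 lower, or 11.8% each way beside 15.9% and 15.5% of all genes. All 34 lay above the median signal, where 23.9% of all genes were called higher and 23.3% lower. The median log2 difference of the 34 was 0.040. The counts were 2 higher and 4 lower with median centring, 9 and 2 without FOXC1 replicate 2, 3 and 1 without vector replicate 1 or with all rows, and 2 and 3 without vector replicate 2. The core subunit NDUFV2, an iron-sulfur protein of the NADH-oxidising module, gave signals of 8713 and 8603 in FOXC1 cells against 6295 and 6360 in vector cells. Its arrays did not overlap, and the rise of 36.7% (log2 0.45 ± 0.026 SE, limma adjusted p = 1.33e-11) exceeded the spread within either pair. A second, dimmer probe set for NDUFV2 read 8537 and 8557 in FOXC1 cells against 6104 and 6124 in vector cells (log2 0.48 ± 0.026 SE), the same direction and nearly the same size.

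NDUFA7, an accessory subunit of the same enzyme, gave 2607 and 2594 in FOXC1 cells against 2052 and 2082 in vector cells. This was a rise of 25.6% (log2 0.33 ± 0.040 SE, limma adjusted p = 1.31e-06), with no overlap between the groups. The other risers were smaller. NDUFAB1, the mitochondrial acyl carrier protein that also sits in complex I, rose by 10.7% (2267 and 2315 in FOXC1 cells, 2090 and 2045 in vector cells, limma adjusted p = 0.00925), and the accessory subunit NDUFB3 by 10.3% (1641 and 1506 in FOXC1 cells, 1415 and 1433 in vector cells, limma adjusted p = 0.0415).

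The 4 complex I genes called lower were all accessory subunits, as were 27 of all 34 complex I genes. NDUFA8, a subunit of the intermembrane space side, gave 2811 and 2550 in FOXC1 cells against 3040 and 3135 in vector cells and fell by 13.2% (log2 -0.20 ± 0.043 SE, limma adjusted p = 0.00088). NDUFA5, which belongs to the arm that projects into the matrix, gave 1260 and 1130 in FOXC1 cells against 1399 and 1324 in vector cells and fell by 12.1% (limma adjusted p = 0.0166). In both genes the FOXC1 arrays lay below the vector arrays but apart from each other. NDUFB5 fell by 7.4% and NDUFA12 by 4.7% (limma adjusted p = 0.00876 and 0.0494).

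The catalytic core of complex I did not move as a unit. Beside NDUFV2, the core subunits NDUFV1 (0.015), NDUFS1 (-0.018), NDUFS3 (0.0060), NDUFS7 (0.053) and NDUFS8 (0.0071) were not called, and the 95% intervals of these log2 differences lay between -0.085 and 0.17. NDUFV1 carries the flavin that takes electrons from NADH, and NDUFS1, NDUFS7 and NDUFS8 carry iron-sulfur clusters on the way to coenzyme Q. The 26 complex I genes that were not called had log2 differences between -0.039 and 0.12. Among the called ones, NDUFAB1 lost its call with median centring (adjusted p = 0.158) or without vector replicate 2 (0.134), NDUFB3 with median centring (0.246) and without FOXC1 replicate 1 (0.24), vector replicate 1 (0.214) or vector replicate 2 (0.144), NDUFB5 without vector replicate 1 (0.142), and NDUFA5 without FOXC1 replicate 2 (0.147) or vector replicate 1 (0.197). NDUFA12 lost it without FOXC1 replicate 2 (0.201), vector replicate 1 (0.0782) or vector replicate 2 (0.342).

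Sequences upstream of the start were read from RefSeq (GRCh38.p14) for the complex I genes with the largest rises and the largest fall, to show what known respiratory gene motifs stand there. The 250 bases before the first listed start are given on the gene's strand, 5′ to 3′, with matches to a searched motif in capitals: NDUFV2 at chr18:9102449-9102698 (plus strand), NDUFA7 at chr19:8321376-8321625 (minus strand) and NDUFA8 at chr9:122159780-122160029 (minus strand).
NDUFV2: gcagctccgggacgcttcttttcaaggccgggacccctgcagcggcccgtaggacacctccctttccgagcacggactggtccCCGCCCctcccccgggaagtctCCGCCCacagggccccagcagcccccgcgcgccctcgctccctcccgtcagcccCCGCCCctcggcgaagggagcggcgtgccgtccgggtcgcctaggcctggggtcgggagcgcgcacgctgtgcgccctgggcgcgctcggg
NDUFA7: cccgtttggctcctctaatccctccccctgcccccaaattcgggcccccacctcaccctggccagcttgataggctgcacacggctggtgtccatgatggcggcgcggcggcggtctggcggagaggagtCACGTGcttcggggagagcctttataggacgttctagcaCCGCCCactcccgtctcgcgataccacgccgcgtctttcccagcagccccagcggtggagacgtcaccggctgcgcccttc
NDUFA8: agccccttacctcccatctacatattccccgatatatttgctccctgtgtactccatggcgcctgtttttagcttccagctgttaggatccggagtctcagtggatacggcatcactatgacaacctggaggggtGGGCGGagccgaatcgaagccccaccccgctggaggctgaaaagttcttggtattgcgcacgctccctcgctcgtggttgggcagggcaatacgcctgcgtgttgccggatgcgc
The NDUFV2 window held the Sp1 box GGGCGG 3 times, each on the opposite strand and so printed as its reverse complement, and was 76.8% G or C. The NDUFA7 window held 1 Sp1 box and the hypoxia element core ACGTG on both strands within a single 6-base palindrome. The NDUFA8 window held 1 Sp1 box.

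Promoter entries were found for 66 of the 78 genes. Motifs were searched on both strands of the same 250 bases in these and in all 27305 promoter entries. The entries overall were not matched to the members by signal, gene type or G and C content. NRF1 and the ETS factor GABP are the textbook activators of nuclear respiratory genes, and their motifs were more frequent upstream of members than of entries overall: the NRF1 core GCATGCGC in 10 of 66 (15.2%, against 2.81% of all entries) and the ETS core CCGGAAG in 15 (22.7%, against 8.82%). The Sp1 box stood in 36 (54.5%, against 42.3%) and ACGTG in 15 (22.7%, against 18.7%). The ERR element TCAAGGTCA stood in 0 members and 0.319% of all entries, and the forkhead core GTAAACA in 0 members and 2.98% of all entries, which says only that these letters are not in this window. The NRF1 core was found in 3 of 12 genes called higher, 1 of 10 called lower and 6 of 44 not called. The ETS core was found in 2, 1 and 12 of these. A match is a description of the sequence and not a measured binding site.

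Complex II, the succinate dehydrogenase that also serves the tricarboxylic acid cycle, was represented by SDHA and SDHC. The flavoprotein SDHA gave 8981 and 8613 in FOXC1 cells against 9264 and 9402 in vector cells and fell by 5.8% (log2 -0.085 ± 0.026 SE, limma adjusted p = 0.0148). Leaving out FOXC1 replicate 2 (adjusted p = 0.155) or vector replicate 2 (0.109) ended this call. SDHC, a membrane anchor, gave 9304 and 9204 in FOXC1 cells against 9532 and 9539 in vector cells. It was not called, with a log2 difference of -0.043 and a 95% interval from -0.092 to 0.0062. A second, dimmer SDHC probe set gave 2243 and 2114 in FOXC1 cells against 2270 and 2326 in vector cells. It was not called either (log2 -0.077, 95% interval from -0.17 to 0.012).

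Complex III, which hands electrons from coenzyme Q to cytochrome c, had 1 gene of 7 called lower, or 14.3% beside 15.5% of all genes. Of the 7, 6 lay above the median signal, where 23.3% of all genes were called lower. With median centring 2 of the 7 were called lower, beside 18.4% of all genes. UQCRC1, a matrix-facing core protein, gave 3228 and 3101 in FOXC1 cells against 3451 and 3375 in vector cells and fell by 7.3% (limma adjusted p = 0.0265). It did not hold without FOXC1 replicate 2 (adjusted p = 0.122), vector replicate 1 (0.237) or vector replicate 2 (0.0848). Its partner UQCRC2 read 6900 and 6686 in FOXC1 cells against 7104 and 7098 in vector cells, on the same side but not called (log2 -0.064, adjusted p = 0.0832). In limma 0 genes of complex III were called higher, and 1 was higher at an unadjusted p under 0.05, the small subunit UQCR10 (6311 and 6226 in FOXC1 cells, 5916 and 6028 in vector cells, adjusted p = 0.0659). UQCRB, UQCRH, UQCRQ and UQCR11 were not called, with log2 differences between -0.12 and 0.022. CYC1, the cytochrome c1 subunit of complex III, lies outside the symbols used here and is not among the 7. It was called lower (log2 -0.077 ± 0.028 SE, limma adjusted p = 0.0407) and is counted below with coenzyme Q synthesis and cytochrome c.

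Complex IV, the cytochrome c oxidase that reduces oxygen, had 5 genes called higher and 3 lower of 17. These were 29.4% and 17.6%, beside 15.9% and 15.5% of all genes. Of the 17, 12 lay above the median signal, where 23.9% of all genes were called higher and 23.3% lower. The median log2 difference of complex IV was 0.0061. The count higher was 2 with median centring or without vector replicate 1 and 3 with quantile normalization, and with all rows 3 were higher and 1 lower. Several of its nuclear subunits exist as a broadly expressed form and a form restricted to muscle, lung or testis. In COX7A and COX6A the restricted form was called higher and the broad form lower. COX7A1, the heart and muscle form, was dim, with 244 and 260 in FOXC1 cells against 210 and 200 in vector cells (a rise of 21.2%, log2 0.28 ± 0.097 SE, limma adjusted p = 0.0339). COX7A2, its broad counterpart, gave 3399 and 3305 in FOXC1 cells against 3750 and 3760 in vector cells and fell by 10.7% (log2 -0.16 ± 0.034 SE, limma adjusted p = 0.000838).

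The muscle form COX6A2 gave 920 and 982 in FOXC1 cells against 799 and 825 in vector cells, a rise of 16.7% (log2 0.22 ± 0.061 SE, limma adjusted p = 0.00742). The broad form COX6A1 gave 11489 and 12187 in FOXC1 cells against 12364 and 12548 in vector cells and fell by 5.0% (log2 -0.074 ± 0.025 SE, limma adjusted p = 0.0316). In both pairs the arrays of the groups did not overlap, although the FOXC1 arrays of COX6A1 were far apart. COX7A1 had both group means below the 25th percentile of all signals (277), and its call did not hold with quantile normalization (adjusted p = 0.0889), median centring (0.0542) or all rows (0.0912), nor without FOXC1 replicate 2 (0.137), vector replicate 1 (0.0843) or vector replicate 2 (0.21). The call of COX6A2 was lost without vector replicate 1 (adjusted p = 0.0993). That of COX6A1 was lost without FOXC1 replicate 1 (adjusted p = 0.378) or vector replicate 2 (0.124), with all rows (0.185) and with the mean of its probe sets (0.0571). A second COX6A1 probe set, at 9696 and 10224 in FOXC1 cells against 10260 and 10314 in vector cells, was not called (log2 -0.047).

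The other pairs did not show this split. The restricted forms COX4I2 (log2 0.060), COX6B2 (0.036), COX7B2 (-0.0055) and COX8C (0.0061) were not called, with 95% intervals reaching from -0.24 to 0.29. Their broad forms COX4I1 (0.047), COX6B1 (-0.0042), COX7B (-0.089) and COX8A (-0.024) were not called either, with intervals from -0.23 to 0.10. Of the 6 restricted forms, 4 were dim in both groups, with signals of 131 to 260 on the 4 arrays.

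The COX6A pair is shown upstream of its starts because its forms changed in opposite directions, at chr16:31428361-31428610 (minus strand) for COX6A2 and chr12:120437863-120438112 (plus strand) for COX6A1 of GRCh38.p14, from RefSeq, marked as above.
COX6A2: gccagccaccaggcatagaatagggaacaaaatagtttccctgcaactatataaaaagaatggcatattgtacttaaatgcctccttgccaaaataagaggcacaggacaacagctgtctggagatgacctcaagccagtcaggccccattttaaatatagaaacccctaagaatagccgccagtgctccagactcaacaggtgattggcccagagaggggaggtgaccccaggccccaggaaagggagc
COX6A1: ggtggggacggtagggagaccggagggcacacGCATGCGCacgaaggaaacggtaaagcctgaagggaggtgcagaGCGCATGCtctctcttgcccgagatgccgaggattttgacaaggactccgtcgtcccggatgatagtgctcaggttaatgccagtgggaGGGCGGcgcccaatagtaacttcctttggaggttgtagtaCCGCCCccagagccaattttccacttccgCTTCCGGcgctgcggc
The COX6A2 window held none of the searched motifs and was 49.2% G or C. The COX6A1 window held 2 matches to the NRF1 core, 2 to the Sp1 box and 1 to the ETS core, and was 60% G or C.

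Among subunits of complex IV with a single form, COX5A and COX5B, which flank the catalytic subunits, were called higher, and COX6C, a small membrane subunit, lower. COX5A gave 10398 and 10093 in FOXC1 cells against 9151 and 9425 in vector cells, a rise of 10.3% (log2 0.14 ± 0.025 SE, limma adjusted p = 0.000143) that held without any one array. COX5B gave 6572 and 6297 in FOXC1 cells against 5938 and 6055 in vector cells, a rise of 7.3% (limma adjusted p = 0.0114). COX6C gave 2965 and 2723 in FOXC1 cells against 3072 and 3204 in vector cells and fell by 9.4% (limma adjusted p = 0.0129). COX7C was level, at 6516 and 6161 in FOXC1 cells against 6248 and 6416 in vector cells, with overlapping arrays. COX7A2L, a factor that joins complexes III and IV into supercomplexes, gave 4497 and 4182 in FOXC1 cells against 3893 and 3890 in vector cells, a rise of 11.4% (limma adjusted p = 0.00194) that was not called with median centring (adjusted p = 0.0516) or without a variance trend (0.112). COX5B lost its call with median centring (adjusted p = 0.305) and without FOXC1 replicate 1 (0.0922) or vector replicate 1 (0.112), and COX6C without FOXC1 replicate 2 (0.143) or vector replicate 2 (0.159).

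**Figure D3:**
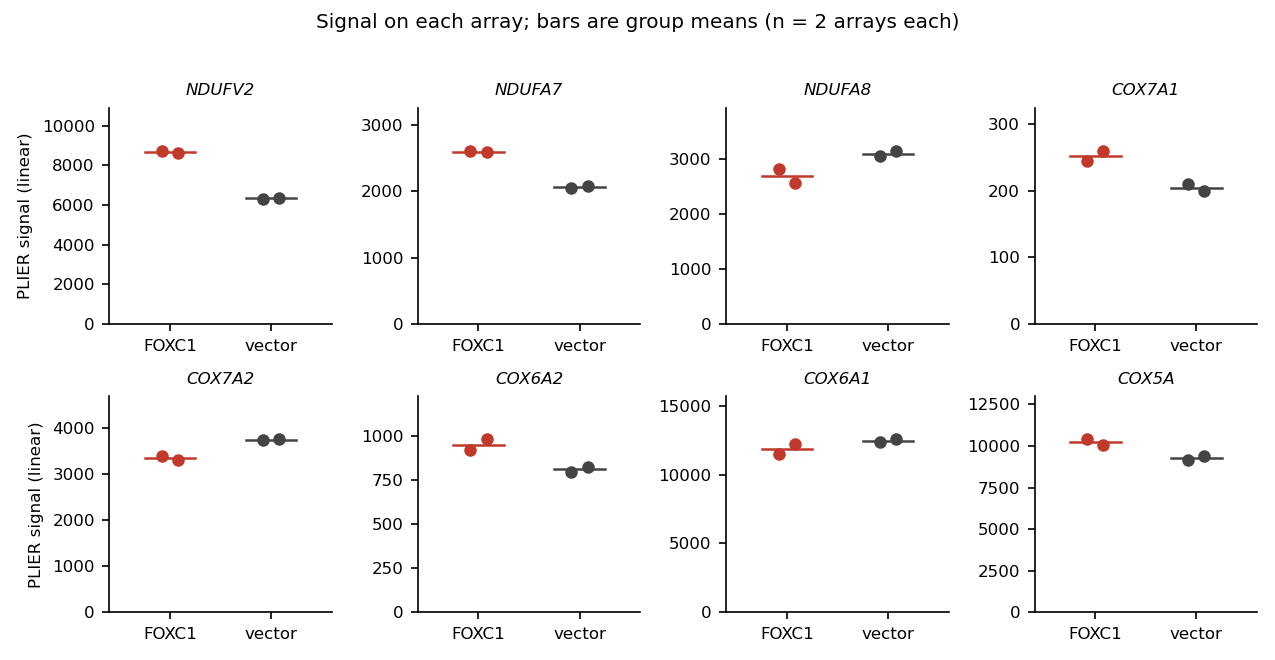
PLIER signal (linear, each panel with its own axis starting at 0) on the 2 FOXC1 arrays (red, left) and the 2 vector arrays (grey, right) for 8 genes of complexes I and IV; bars are group means. NDUFV2 shows the widest gap, at 8713 and 8603 in FOXC1 cells against 6295 and 6360 in vector cells, and COX6A1 one of the narrowest, at 11489 and 12187 in FOXC1 cells against 12364 and 12548 in vector cells.

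Complex V, the ATP synthase, had 4 genes called higher and 3 lower of 18. These were 22.2% and 16.7%, beside 15.9% and 15.5% of all genes. Of the 18, 17 lay above the median signal, where 23.9% of all genes were called higher and 23.3% lower. The median log2 difference of complex V was 0.0069. With median centring all 4 risers lost their call (adjusted p = 0.0596 for ATP5ME, 0.135 for ATP5PF, 0.389 for ATP5MJ and 0.645 for ATP5MC1), and 3 genes were lower. The counts were 1 higher and 1 lower without vector replicate 1 or with all rows, and 2 and 2 without vector replicate 2. In the F1 head, where ATP is made, the alpha subunit ATP5F1A gave 5407 and 5227 in FOXC1 cells against 5828 and 5580 in vector cells and fell by 6.8% (limma adjusted p = 0.0171). The catalytic beta subunit ATP5F1B (log2 -0.026), the central shaft ATP5F1C (-0.0085) and ATP5F1D (0.057) were not called. ATP5IF1, the inhibitor that stops the synthase from running backwards, gave 3275 and 3375 in FOXC1 cells against 3549 and 3623 in vector cells and fell by 7.3% (limma adjusted p = 0.0223).

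In the membrane part of the synthase, changes went both ways. ATP5MG, a subunit of the membrane base, gave 5861 and 6020 in FOXC1 cells against 6629 and 6502 in vector cells and fell by 9.5% (log2 -0.14 ± 0.028 SE, limma adjusted p = 0.000426), a call that held without any one array. ATP5MGL, its close copy, read 590 and 596 in FOXC1 cells against 645 and 638 in vector cells and was not called (log2 -0.11). Transcripts of such near-identical copies can bind the same probes. ATP5ME, which helps pair the synthase into dimers, gave 2036 and 1821 in FOXC1 cells against 1732 and 1660 in vector cells, a rise of 13.5% (log2 0.18 ± 0.052 SE, limma adjusted p = 0.00954).

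The peripheral stalk subunit ATP5PF rose by 10.3% (3324 and 3225 in FOXC1 cells, 2907 and 3027 in vector cells, limma adjusted p = 0.00576), while the other stalk subunits ATP5PB, ATP5PD and ATP5PO were not called. The small membrane subunit ATP5MJ rose by 6.9% (limma adjusted p = 0.0149). Of the 3 genes for the proton-carrying c ring, ATP5MC1 rose by 4.5% (17633 and 17216 in FOXC1 cells, 16541 and 16801 in vector cells, limma adjusted p = 0.0187), and ATP5MC2 and ATP5MC3 were not called (log2 -0.0014 and -0.072). Calls were lost for ATP5F1A without FOXC1 replicate 2 (adjusted p = 0.0999) or vector replicate 1 (0.279), for ATP5IF1 without FOXC1 replicate 1 (0.0768), vector replicate 1 (0.0788) or vector replicate 2 (0.221), for ATP5ME without FOXC1 replicate 1 (0.11) or vector replicate 2 (0.102), and for ATP5PF without vector replicate 1 (0.133). They were also lost for ATP5MJ without vector replicate 1 (0.146) or vector replicate 2 (0.0629), and for ATP5MC1 without FOXC1 replicate 1 (0.153) or vector replicate 1 (0.134).

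Summed over members, the signal of each complex differed little between groups. The sum over complex I was 112705 and 109731 in FOXC1 cells against 107583 and 107856 in vector cells, without overlap. NDUFV2 alone gave 8713 and 8603 of this in FOXC1 cells against 6295 and 6360 in vector cells. Without NDUFV2 the sums of the groups overlapped. The sum over complex II was lower in FOXC1 cells (18285 and 17818) than in vector cells (18796 and 18940). For complexes III, IV and V the arrays overlapped. All members together took 0.582% and 0.576% of the array's total signal in FOXC1 cells and 0.578% and 0.584% in vector cells. These sums add signals of different probes and weigh bright ones most.

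The strongest riser lay among neighbours that also rose. Gene order was taken from RefSeq (GRCh38.p14), with 5 measured genes on each side. Of the 10 around NDUFV2 on chromosome 18, 6 were called higher and 0 lower, with a median log2 difference of 0.18. The phosphatase subunit PPP4R1 gave 9026 and 9087 in FOXC1 cells against 6695 and 6588 in vector cells (log2 0.45 ± 0.026 SE), and the small GTPase RAB12 4747 and 4884 in FOXC1 cells against 3526 and 3602 in vector cells (log2 0.43 ± 0.033 SE). These differences were close in size to that of NDUFV2 (0.45). Of the 10 genes around ATP5ME on chromosome 4, 8 were called higher and 0 lower, with a median log2 difference of 0.26, above the 0.18 of ATP5ME itself. Whether the changes of NDUFV2 and ATP5ME belong with those of their neighbours was not tested.

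NDUFA7 on chromosome 19 stood apart from its surroundings. Of its 10 neighbours 1 was called higher and 3 lower. The adjacent measured gene RPS28, a ribosomal protein, read 19616 and 19332 in FOXC1 cells against 18910 and 18935 in vector cells (log2 0.041, not called). By its number, this RPS28 probe set falls among those of chromosome 11 genes, and which locus it reads was not tested. Among members that fell, UQCRC1, COX6C and ATP5MG each had 5 of 10 neighbours called lower, and around COX7A1 5 of 10 were called higher and 0 lower. Over all 78 members the median number of neighbours was 1 called higher and 1 lower.

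**Figure D4:**
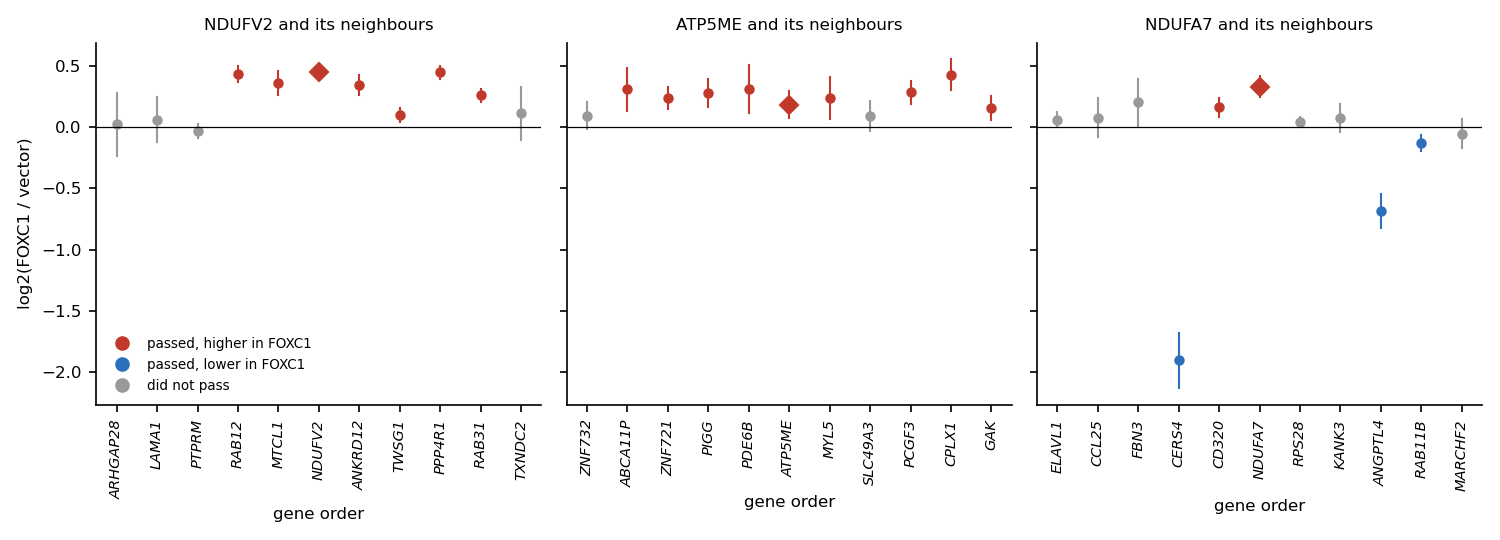
Log2 difference (FOXC1 over vector) with 95% interval (n = 2 arrays per group) of NDUFV2, ATP5ME and NDUFA7 (diamonds) and of the 5 measured genes on either side in chromosome order (circles; red called higher, blue lower, grey not called). Around NDUFV2 6 of 10 and around ATP5ME 8 of 10 neighbours were called higher, and around NDUFA7 1 was higher and 3 lower.

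Genes that build, supply and regulate the complexes were counted in 12 related lists. For all the lists below, the share over all genes was 15.9% called higher and 15.5% lower. Among genes above the median signal, where most genes of each list lay, it was 23.9% and 23.3%. Assembly factors moved in both directions, as the subunits did. For complex I, 2 of 17 were called higher and 2 lower (median log2 0.039): FOXRED1, a complex I assembly factor, fell to 2060 and 1852 in FOXC1 cells, against 2535 and 2713 in vector cells (log2 -0.42 ± 0.049 SE), and NUBPL, which delivers iron-sulfur clusters, fell by 0.38 log2 units, while NDUFAF3 rose by 0.16. For complex III, 3 of 6 were called higher and 1 lower (median log2 0.063), with UQCC3 at 0.25. For complex IV, 5 of 21 were called higher and 1 lower (median log2 0.060), with the copper delivery factor COA6 at 0.28 and the heme A enzymes COX10 at 0.18 and COX15 at -0.14. For complex V, 1 of 4 was called higher (TMEM70, log2 0.14) and 1 lower (ATPAF2, log2 -0.21). Genes of coenzyme Q synthesis and cytochrome c had 4 of 16 called higher and 2 lower (median log2 -0.015), with PDSS1, which makes the side chain of coenzyme Q, at 0.20. The falls included CYC1 (log2 -0.077), which is a subunit of complex III.

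Regulators of mitochondrial biogenesis had 5 of 15 called higher and 1 lower (median log2 0.048). The one that fell, PPARGC1A, is the coactivator known to drive respiratory gene transcription, and gave 422 and 401 in FOXC1 cells against 825 and 784 in vector cells (log2 -0.94 ± 0.071 SE, limma adjusted p = 1.14e-09). Its partner receptor ESRRA gave 1584 and 1553 in FOXC1 cells against 1358 and 1254 in vector cells (log2 0.26 ± 0.052 SE). NRF1 (log2 -0.012), GABPA (0.027) and TFAM (-0.016) were not called, with 95% intervals between -0.13 and 0.13. Mitochondrial DNA maintenance had 1 of 11 called higher and 3 lower (median log2 0.022), with the thymidine kinase TK2 at -0.50 and the nucleotide reductase subunit RRM2B at -0.38.

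The mitochondrial ribosome, which makes the subunits encoded by mitochondrial DNA, had 27 of 73 genes called higher and 3 lower, or 37.0% and 4.1%, with a median log2 difference of 0.072. Of the 73 genes 70 lay above the median signal, where 23.9% of all genes were called higher and 23.3% lower. Its largest riser, MRPL41, gave 4478 and 4308 in FOXC1 cells against 3199 and 3109 in vector cells (log2 0.48 ± 0.035 SE, limma adjusted p = 6.94e-10), while MRPL52 fell by 0.22 log2 units. The count higher was 9 with median centring, beside 9.44% of all genes, and 4 without a variance trend, beside 7.93%. It was 16 with all rows, beside 10.1%, and 15 without vector replicate 1, beside 11.2%. The count lower was 8 without FOXC1 replicate 1 (17.1% of all genes), and 1 without FOXC1 replicate 2 (13.8%) or vector replicate 2 (12.0%).

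Genes of the hypoxia response that bear on respiration had 1 of 14 called higher (HIGD1A) and 9 lower, or 64.3% lower beside 23.3% of genes above the median signal, where 13 of the 14 lay, with a median log2 difference of -0.21. HIF1A, the oxygen-regulated transcription factor, gave 7362 and 7202 in FOXC1 cells against 11762 and 12263 in vector cells (log2 -0.72 ± 0.026 SE, limma adjusted p = 3.75e-15), and its relative EPAS1 1468 and 1406 in FOXC1 cells against 2482 and 2469 in vector cells (log2 -0.78 ± 0.044 SE). BNIP3L, a receptor for the removal of mitochondria, fell by 0.53 log2 units, and PDK1, which shuts off pyruvate dehydrogenase, fell by 0.38. The count lower was between 7 and 11 in all 16 alternative fits, while HIGD1A lost its call with median centring, without a variance trend, with all rows, with the mean of probe sets and without either vector replicate.

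The tricarboxylic acid cycle and pyruvate entry had 3 of 17 called higher and 5 lower (median log2 -0.037), with the pyruvate dehydrogenase subunit DLAT at -0.41 and pyruvate carboxylase PC at -0.27. Carriers of ATP, phosphate and electrons had 6 of 21 called higher and 3 lower (median log2 0.019), with ETFDH, which feeds electrons from fat oxidation into coenzyme Q, at -0.54. Genes of cristae and inner membrane organisation had 4 of 14 called higher and 1 lower (median log2 0.040). The inner membrane protease AFG3L2 led them, with 4309 and 4301 in FOXC1 cells against 2949 and 2940 in vector cells (log2 0.55 ± 0.034 SE, limma adjusted p = 4.51e-11), and lies on chromosome 18, as NDUFV2 does.

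The counts of the other 10 lists moved with the fit, as did the shares over all genes. Of all genes 9.44% were called higher and 18.4% lower with median centring, and 7.93% and 9.72% without a variance trend. The shares were 15.5% and 17.1% without FOXC1 replicate 1, and 16% and 13.8% without FOXC1 replicate 2. They were 11.2% and 11.2% without vector replicate 1, and 10.4% and 12.0% without vector replicate 2. With median centring the count higher was 1 for complex I assembly, 1 for complex III assembly, 3 for complex IV assembly, 1 for coenzyme Q synthesis, 3 for biogenesis and 2 for the carriers, and the single riser of complex V assembly and all 3 of the tricarboxylic acid cycle lost their calls. The count lower was then 5 for coenzyme Q synthesis, 2 for biogenesis and 5 for mitochondrial DNA maintenance. Without FOXC1 replicate 1 complex I assembly had 1 higher and 4 lower, complex IV assembly 4 lower, coenzyme Q synthesis 5 lower, biogenesis 3 higher and 2 lower, mitochondrial DNA maintenance 5 lower, and the tricarboxylic acid cycle 1 higher. Without FOXC1 replicate 2 complex I assembly had 6 higher, coenzyme Q synthesis 1 lower, biogenesis 2 lower, mitochondrial DNA maintenance 3 higher, and the tricarboxylic acid cycle 5 higher, while complex V assembly lost its riser. Leaving out vector replicate 1 ended both calls of complex V assembly, both falls of coenzyme Q synthesis and the single fall of complex IV assembly, and left 1 higher and 3 lower in the tricarboxylic acid cycle and 3 carriers higher. Leaving out vector replicate 2 left 1 higher for complex I assembly, 3 for complex IV assembly, 3 for biogenesis and 2 for cristae and 1 lower for coenzyme Q synthesis, and ended the fall in complex IV assembly and the rise in complex V assembly. Without a variance trend no list had a larger count in either direction than in the fit used here.

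**Figure D5:**
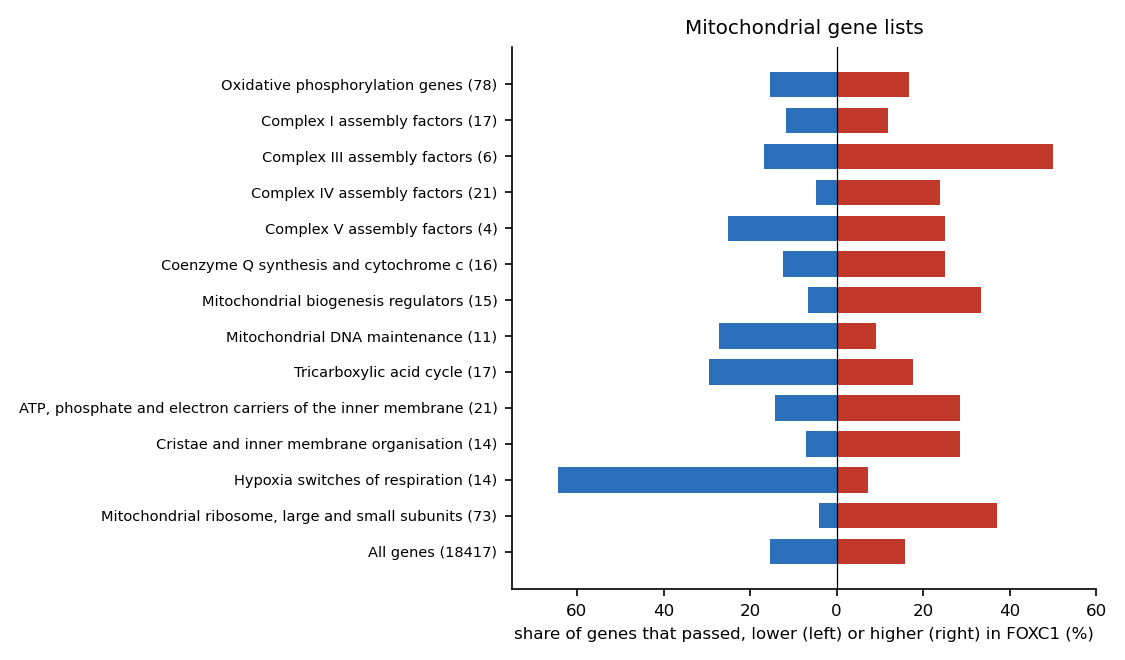
Share of genes (%) called lower (blue, to the left) or higher (red, to the right) in FOXC1 cells for the 78 oxidative phosphorylation genes, 12 related lists (number of measured genes in parentheses) and all genes. The 78 genes (15.4% lower, 16.7% higher) lie near all genes (15.5% and 15.9%); in the mitochondrial ribosome 37.0% were higher and in the hypoxia list 64.3% were lower.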

How the data were processed

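RNA of 4 samples was amplified from 100 ng and hybridised to whole-transcript gene arrays. Per the submitters' processing notes, the authors summarised probes with PLIER in Affymetrix Expression Console; no version or option is named in the labels. The deposited table gives linear intensity for 33297 probe sets and was not rescaled. Of these, 19460 carry 1 gene symbol, 1754 several and 12083 none in the platform annotation.

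Values were fitted as log2(signal + 16) with limma 3.58.1 in R 4.3.3 (eBayes with a trend, 2 residual and 18.1 prior degrees of freedom), two-sided, with Benjamini-Hochberg adjustment. The offset shrinks differences of dim genes. Changes were compared within probe sets; a probe set can also bind a gene's copies. The labels call the arrays biological replicates, but separate transfections are not stated, so the p-values may not cover the spread between transfections. With 18.1 prior against 2 residual degrees of freedom, the variance behind each p-value and SE rests mostly on the trend over probe sets. It rests less on the spread between that gene's own arrays. Arrays with the same number did not deviate together (correlation -0.015), so no block was used. The fit was checked on simulated data, against a limit on false calls set after a first simulation had exceeded a stricter one.

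Members and lists were chosen with earlier results of these data known. Genes were named by rule: members called with an absolute log2 difference of at least 0.25, up to 4 called members per complex, isoform pairs, core subunits, and up to 3 called genes per related list. The remaining called members, other members, regulators and CYC1 given by name, neighbours and the promoters shown were added after their values were seen. So were the interval limits, the motifs and the background of bright genes. NDUFV1-DT and SDHAF genes were set apart although the prefixes take them in. Alternatives were offsets, signal filters, scaling, moderation, a replicate block, leaving out arrays, probe set averaging, all rows and an adjusted p of 0.10.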

Additional observations from a re-analysis of the deposited data

Results flagged for a closer look

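Signals outside the members' brightest probe sets were also compared. A probe set shared by NDUFC2 and its readthrough transcript NDUFC2-KCTD14 was called higher in FOXC1 cells (log2 0.117), with signals of 9151 and 8955 in FOXC1 cells against 8191 and 8505 in vector cells. ATP5F1EP2, a pseudogene of the ATP synthase epsilon subunit, was called higher as well (log2 0.124). The dimmer probe set of ATP5MK, a small subunit of the synthase membrane base, was called higher (log2 0.109; 8299 and 8239 in FOXC1 cells, 7661 and 7670 in vector cells), while the brighter one was not (log2 0.036). The dimmer probe set of NDUFV2 was called higher (log2 0.482). By its number, the brighter ATP5MK probe set falls among those of chromosome X genes, while ATP5MK lies on chromosome 10. The brighter NDUFV2 probe set falls among those of chromosome 19 genes, and the brighter SDHC one among those of chromosome 17. NDUFV2 and SDHC lie on chromosomes 18 and 1. Which locus each reads was not tested. With probe sets averaged, 5 of 18 complex V genes were called higher (16.4% of all genes). No explanation of these values was tested.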

How the results depend on the processing

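Of 25 called members, 2 (NDUFV2 and NDUFA7) kept their call in all 16 alternatives, 16 kept it with median centring and 3 without a variance trend; no called difference changed sign in the alternatives run. The count called higher was 4 with median centring (9.44% of all genes), 3 without a variance trend (7.93%) and 7 with all rows in the fit (10.1%), against 13 (15.9%). The count called lower was 13 with median centring (18.4% of all genes), 0 in limma without a variance trend (9.72%; 5 members at an unadjusted p under 0.05) and 3 with all rows (11.7%), against 12 (15.5%). Leaving out 1 array gave 6 to 17 higher and 6 to 11 lower. Median log2 differences with quantile normalization were -0.11 for complex II, -0.028 for IV and -0.022 for V. With median centring they were -0.023 for all members, -0.11 for complex II, -0.053 for III, -0.035 for IV and -0.035 for V. Leaving out 1 array gave medians of -0.0034 to 0.034 for all members, 0.011 to 0.065 for complex I, -0.083 to -0.045 for complex II, -0.087 to 0.015 for III, 0.012 to 0.055 for IV and -0.0097 to 0.015 for V. The cause of these moves was not tested. With the replicate number as a block, 15 members were called higher and 12 lower, beside 18.1% and 16.8% of all genes. No called member then lost its call. The replicate numbers do not pair the samples. Counts of the 12 related lists were rerun in all alternatives after seeing the data. A count that moves genes between complexes I and IV was not run, because those genes were not analysed here. With 2 arrays per group, small differences and the 4 dim isoforms have wide intervals.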

Other observations

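Genes set apart from the members are given as values. SDHD, the other membrane anchor of complex II, read 5196 and 5163 in FOXC1 cells against 6384 and 6340 in vector cells (log2 -0.30 ± 0.028 SE, limma adjusted p = 4.1e-08). This was a larger difference than that of SDHA (-0.085) or SDHC (-0.043). Of the 10 genes around SDHD on chromosome 11, DLAT among them, 0 were called higher and 4 lower. By its number, the SDHD probe set falls among those of chromosome 1 genes. Which locus it reads, and whether its change belongs with those of the neighbours, was not tested. The 2 probe sets shared by SDHA and its pseudogenes were called lower, at -0.15 and -0.13. Of the assembly factors NDUFAF1 to NDUFAF7, NDUFAF3 (0.16) and NDUFAF4 (0.097) were called higher. SDHAF2, SDHAF3, SDHAF4, NDUFV1-DT and the pseudogene UQCRBP1 were not called. The 2 probe sets of NDUFB4 held identical values on all 4 arrays and were counted once.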
